A study of Homo sapiens with 9 samples.

Results

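The genes described here are the 147 whose transcripts were lower in 293T cells given either of 2 fusion proteins, CIC::NUTM1 or CIC::DUX4, than in cells given empty vector. They are 1.29% of the 11433 genes with a mean of at least 5 CPM (a gene's counts for every 1000000 counts of its library) in the empty vector libraries, and the count table lists 62700 genes in all. A gene was taken when its lowest empty vector library lay above the highest library of both fusions and when the mean CPM of each fusion was at most 0.8 of the empty vector mean. CYP1B1, INSM1 and genes with symbols beginning HOX, KCN, COL, HSP, DNAJ, RPL, RPS or MT- were left out, which removed 8 genes that met these levels. The genes were thus chosen by their CPM with each fusion and with empty vector, and these levels are given below as a description without a test. Without empty vector replicate 1 the same rule found 228 genes, 128 of the 147 among them.

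293T cells are an established human embryonic kidney line, transformed with viral genes and easy to transfect. Per the labels, 300000 cells in each condition received a plasmid with no insert, with HA-CIC(ex20)::NUTM1(ex6) or with HA-CIC::DUX4, by reverse transfection with Fugene 6, and RNA was taken about 48 hours later. Each of the 3 groups has 3 libraries of polyA RNA, and the replicates of a group were transfected on separate days. All groups are the same line under the same transfection, no label names a change to the cells' own CIC, and the fusion transcripts were not analysed here. The libraries hold 16970771 to 33655445 counts. All 10 markers set for 293T, KRT8, KRT18 and VIM among them, were above 1 CPM on average. Of 11 markers of fibroblasts, endothelium and other epithelium, 4 (PDGFRA, LUM, EPCAM and CDH1) were above 1 CPM. The summed fibroblast markers were 3.7 to 4.61 CPM with empty vector, 8.73 to 9.69 with CIC::NUTM1 and 6.52 to 16.5 with CIC::DUX4. In the same order, the markers of endothelium summed to at most 0.281, 0.584 and 0.81 CPM, and those of other epithelium, 1 of which was at 0 throughout, to 4.63 to 5.65, 4.84 to 7.03 and 5.06 to 14.1. The part of such cells in the levels below was not tested. In bulk RNA, fewer cells with a transcript and less of it per cell cannot be told apart.

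CIC (capicua) is a DNA-binding protein with an HMG box that holds its target genes at a low level by recruiting corepressors, and signalling through the RAS and ERK pathway releases that repression. In CIC-rearranged sarcomas the gene is joined to DUX4 or, less often, to NUTM1, and the fusion proteins activate genes that CIC normally represses, such as the ETS factors ETV4 and ETV5. The genes below are those on the other side, lower with the fusions than without.

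The ratio of mean CPM to empty vector had a median of 0.714 over the 147 genes with CIC::NUTM1 (quartiles 0.67 and 0.762, lowest 0.456) and of 0.752 with CIC::DUX4 (quartiles 0.704 and 0.78, lowest 0.545). Over all 11433 genes the medians were 0.953 and 0.982. Only 25 of the 147 genes were under 0.7 with both fusions, and the larger of the 2 ratios was between 0.7 and 0.8 for the other 122. Ratios under 0.6 were seen for 8 genes with CIC::NUTM1 and for 2 genes, LINC01605 and FOXI3, with CIC::DUX4. At the limit of the rule, SLC2A1, the widely used glucose transporter GLUT1, had a larger ratio of 0.7996 and EFNA2, an ephrin ligand, of 0.7995, while FAM169A at 0.8001 and APOBEC3C at 0.8009 were just outside. The 147 genes together held 0.941% of all counts with empty vector, 0.683% with CIC::NUTM1 and 0.69% with CIC::DUX4.

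**Figure D1:**
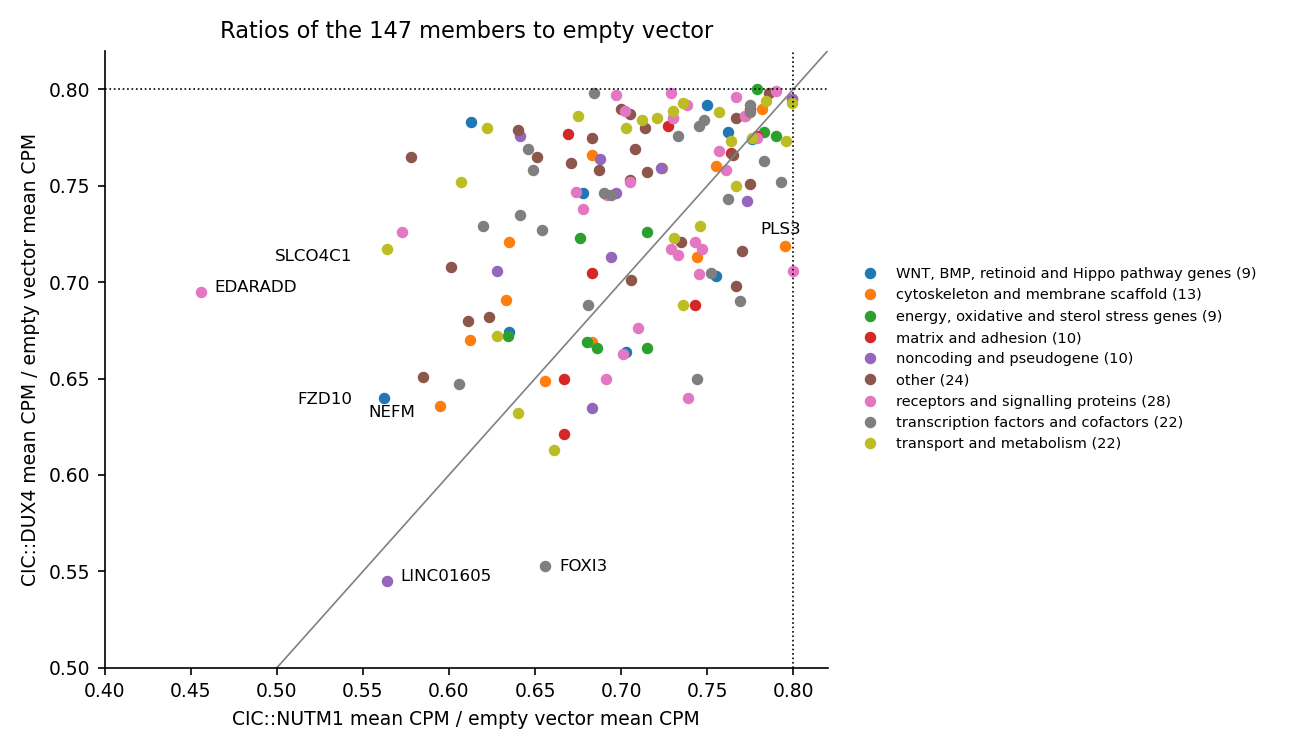
Each point is 1 of the 147 genes, placed by its mean CPM with CIC::NUTM1 (x axis) and with CIC::DUX4 (y axis) as a ratio to the mean with empty vector and coloured by role, with the number of genes of each role in parentheses. Dotted lines mark the limit of 0.8 in the rule, the diagonal marks equal ratios, and EDARADD at 0.456 lies farthest to the left.

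The genes span a wide range of counts. Their mean with empty vector ran from 5.02 to 1321 CPM with a median of 18.3, against 41.8 over all 11433 genes. There were 36 genes under 10 CPM, 96 from 10 to 100 and 15 at 100 or more, and the fewest counts of any of them in any library was 33. The gap between the lowest empty vector library and the highest fusion library had a median of 7.98% of the empty vector mean. It was over 10% for 57 genes and under 1% for 8: EDIL3, DDIT4, MTSS1, FNDC10, DENND2B, ROR2, PCDHGA11 and GFI1. These 8 are named for that gap, after their values were seen, and a small shift in 1 library would move them out of the set.

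Genes that build the cytoskeleton or anchor proteins at the membrane make up 13 of the 147, with median ratios of 0.683 with CIC::NUTM1 and 0.719 with CIC::DUX4. NEFM, the medium chain of the neurofilaments of neurons, which this kidney line also transcribes, stood at 663, 489 and 564 CPM in the 3 empty vector libraries, at 341, 395 and 284 with CIC::NUTM1 and at 349.8, 363 and 378 with CIC::DUX4. Every fusion library lay below every empty vector library, as the rule requires, at ratios of 0.595 ± 0.0964 (SD, n = 3) and 0.636 ± 0.025. ANK1, the ankyrin that ties spectrin to membrane proteins, had 6.3, 7.46 and 6.61 CPM with empty vector, 4.15, 3.97 and 5.25 with CIC::NUTM1 and 3.78, 4.43 and 5.01 with CIC::DUX4. MYOM2, a protein of the M band of muscle sarcomeres, had 18.6, 16.6 and 19.3 CPM, then 9.99, 13.1 and 10.2, then 9.84, 13.7 and 13.0 in the same order of groups. CAV1, the coat protein of caveolae, was at 11.4, 10.6 and 10.0 CPM with empty vector, 7.12, 8.24 and 6.56 with CIC::NUTM1 and 6.67, 6.95 and 7.84 with CIC::DUX4. For these genes the 2 fusions overlapped each other, while both were clear of empty vector by the rule. PLS3, an actin-bundling plastin, has its values with the comparison of the fusions.

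Components of WNT, BMP, retinoid and Hippo signalling gave 9 genes, with medians of 0.703 and 0.746. FZD10, a Frizzled receptor for WNT ligands (chromosome 12, 130162459 to 130165740, plus strand, GRCh38), was at 11.3, 13.0 and 13.2 CPM with empty vector, 6.89, 7.52 and 6.71 with CIC::NUTM1 and 7.45, 9.29 and 7.31 with CIC::DUX4. Its ratio of 0.562 ± 0.0339 (SD, n = 3) with CIC::NUTM1 varied little between libraries. AMOT, angiomotin, which binds the Hippo pathway effector YAP (X chromosome, 112774503 to 112840815, minus strand), was at 1043, 872 and 995 CPM with empty vector, 532, 714 and 602 with CIC::NUTM1 and 629, 654 and 679 with CIC::DUX4. The highest fusion library, at 714 CPM, was well under the lowest empty vector library. CRABP2, which carries retinoic acid to the nucleus, had a smaller change, from 46.0, 37.4 and 37.9 CPM to 32.6, 30.8 and 30.7 with CIC::NUTM1 and 28.1, 31.5 and 34.3 with CIC::DUX4. The other 6, named here by role after their values were seen, were the WNT receptor ROR2, the matricellular protein SMOC1, the retinoic acid hydroxylase CYP26B1, the planar polarity cadherin CELSR1, the BMP co-receptor RGMA and the GSK3-binding protein FRAT1, with ratios of 0.613 to 0.762 and 0.664 to 0.792.

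The largest group, 28 genes, holds receptors and signalling proteins (medians 0.73 and 0.746). EDARADD, the adaptor of the ectodysplasin receptor (chromosome 1, 236348257 to 236502915, plus strand), had the lowest ratio of all with CIC::NUTM1. It was at 8.04, 7.93 and 6.81 CPM with empty vector, 3.62, 3.70 and 3.08 with CIC::NUTM1 and 4.44, 5.69 and 5.72 with CIC::DUX4, ratios of 0.456 ± 0.0447 (SD, n = 3) and 0.695 ± 0.0962. All 3 CIC::NUTM1 libraries lay below all 3 CIC::DUX4 libraries. IRS4, an insulin receptor substrate (X chromosome, 108732482 to 108736409, minus strand), had the most counts of the 147 genes, at 1398, 1268 and 1297 CPM with empty vector, 856, 1174 and 987 with CIC::NUTM1 and 924, 1054 and 1025 with CIC::DUX4. Its CIC::NUTM1 replicate 2 was close to the empty vector libraries and the other 5 fusion libraries were farther away. Among the others, named by role after their values were seen, were the receptors EPOR, CNTFR, IL18R1 and TNFRSF11A, for erythropoietin, ciliary neurotrophic factor, interleukin 18 and RANK ligand, with ratios of 0.678 to 0.71 with CIC::NUTM1 and 0.663 to 0.745 with CIC::DUX4.

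Transcription factors and their cofactors were 22 genes (medians 0.714 and 0.746). SNAI2, the zinc finger repressor Slug of the epithelial to mesenchymal transition, was at 20, 17.8 and 19.0 CPM with empty vector, 10.0, 14.4 and 9.94 with CIC::NUTM1 and 11.1, 14.3 and 11.3 with CIC::DUX4. FOXI3, a forkhead factor of ectodermal and ear development, was at 8.85, 8.41 and 10.1 CPM, then 4.67, 8.05 and 5.20, then 5.48, 4.96 and 4.66 in the same order. In FOXI3 the CIC::NUTM1 libraries spread from near empty vector into the range of the CIC::DUX4 libraries, and the CIC::DUX4 libraries stayed close together. TSC22D3, the glucocorticoid-induced leucine zipper protein, was at 196, 200.1 and 195 CPM with empty vector, 115, 172 and 116 with CIC::NUTM1 and 119, 149.8 and 137 with CIC::DUX4. ZNF703, a zinc finger cofactor, was at 675, 693 and 709.8 CPM, then 559.7, 571 and 478, then 507, 541 and 589. CIC::NUTM1 replicate 2 was the fusion library nearest to empty vector in SNAI2, FOXI3 and TSC22D3, and CIC::DUX4 replicate 3 in ZNF703. The homeobox factor NKX1-2 (ratios 0.641 and 0.735), the inhibitor of DNA binding ID2 (0.733 and 0.776) and the BMP effector SMAD9 (0.748 and 0.784) completed the factors named by the rule.

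Genes that respond to oxygen, oxidants, energy or sterols were 9 (medians 0.715 and 0.723). HMOX1, which breaks down heme and is induced by oxidative stress (chromosome 22, 35380361 to 35394214, plus strand), was at 51.3, 42.2 and 53.8 CPM with empty vector, 34, 35.8 and 30.3 with CIC::NUTM1 and 26.5, 34 and 38.0 with CIC::DUX4. PFKFB4, which sets the level of an allosteric activator of glycolysis, was at 18.8, 19.4 and 16.7 CPM, then 10.2, 16.2 and 8.38, then 9.38, 13.5 and 14. NDRG1, which is induced by hypoxia, was at 142, 149 and 143 CPM, then 98.8, 116 and 96.3, then 92.9, 111 and 111. In all 3 the groups were clear of each other only between empty vector and the fusions, as the rule requires. SLC2A1 was at 105, 99.2 and 108 CPM with empty vector, 78.8, 92.1 and 72.4 with CIC::NUTM1 and 74.7, 79.6 and 95.6 with CIC::DUX4. INSIG1, which holds back sterol synthesis, was at 192, 193 and 179 CPM, then 143, 163 and 136, then 142, 152 and 146. The other 4, named by role after their values were seen, were the mTORC1 inhibitor DDIT4, the cell death protein BMF, the desaturase SCD5 and the selenium carrier SELENOP, with ratios of 0.676 to 0.79 and 0.666 to 0.776.

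Matrix and adhesion proteins were 10 genes (medians 0.735 and 0.772). ADAMTS5, an aggrecan-cleaving protease, was at 12.7, 12.2 and 10.6 CPM with empty vector, 8.35, 8.69 and 6.61 with CIC::NUTM1 and 7.56, 7.49 and 6.95 with CIC::DUX4. EDIL3, an integrin-binding matrix protein, was at 6.13, 7.93 and 7.66 CPM, then 3.97, 6.08 and 4.44, then 3.43, 5.45 and 5.24. ITGA8, the integrin alpha chain of kidney mesenchyme, was at 9.71, 11.2 and 11.0 CPM, then 7.65, 9.03 and 7.72, then 7.29, 9.53 and 7.66. ADAMTS5 was low in all 6 fusion libraries. EDIL3 came nearest to the empty vector range in CIC::NUTM1 replicate 2, at 6.08 CPM against 6.13. In ITGA8 replicate 2 of each fusion was nearest, at 9.03 and 9.53 CPM against a lowest empty vector library of 9.71. Also in this group were fibronectin (FN1), the proteoglycan syndecan 1 (SDC1) and the collagen receptor chain ITGA2, with ratios of 0.669 to 0.779 and 0.688 to 0.777, named after their values were seen.

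Transport and metabolism accounted for 22 genes (medians 0.73 and 0.774). UGT3A2, a UDP-glycosyltransferase, was at 7.17, 7.73 and 8.02 CPM with empty vector, 4.44, 5.03 and 5.20 with CIC::NUTM1 and 5.67, 4.57 and 4.24 with CIC::DUX4. CA8, a carbonic anhydrase-related protein without enzyme activity, was at 36.9, 41.0 and 40.9 CPM, then 23.2, 30.8 and 24.5, then 22.5, 28.8 and 21.6. ST3GAL6, a sialyltransferase, was at 10.9, 16.0 and 13.3 CPM, then 7.36, 8.92 and 8.98, then 8.03, 9.87 and 9.13. The ranges of the 2 fusions overlapped in all 3 of these genes. The 24 genes put in no role included TMEM255A, PRSS16, a serine protease of the thymus, SOWAHA and LRATD2. TMEM255A was at 13.2, 15.2 and 11.0 CPM with empty vector, 6.54, 10.2 and 6.31 with CIC::NUTM1 and 6.60, 9.19 and 9.90 with CIC::DUX4. PRSS16 had ratios of 0.611 and 0.68, SOWAHA of 0.623 and 0.682, and LRATD2 of 0.735 and 0.721. Among the 10 noncoding transcripts and pseudogenes, LINC01605 had 6.07, 4.31 and 4.97 CPM, then 3.27, 2.91 and 2.47, then 3.67, 1.99 and 2.71, and LINC02609 had ratios of 0.683 and 0.635. LINC01605 had the lowest ratio of all 147 with CIC::DUX4, 0.545 ± 0.164 (SD, n = 3), in a gene of few counts. The symbol here means an entry with a transcript of 510 bases. A further Ensembl entry with this symbol is not among the 147. Its ratios between libraries of the same number were 0.905 with CIC::NUTM1 and 0.68 with CIC::DUX4 in replicate 2, and 0.761 and 0.998 in replicate 3.

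**Figure D2:**
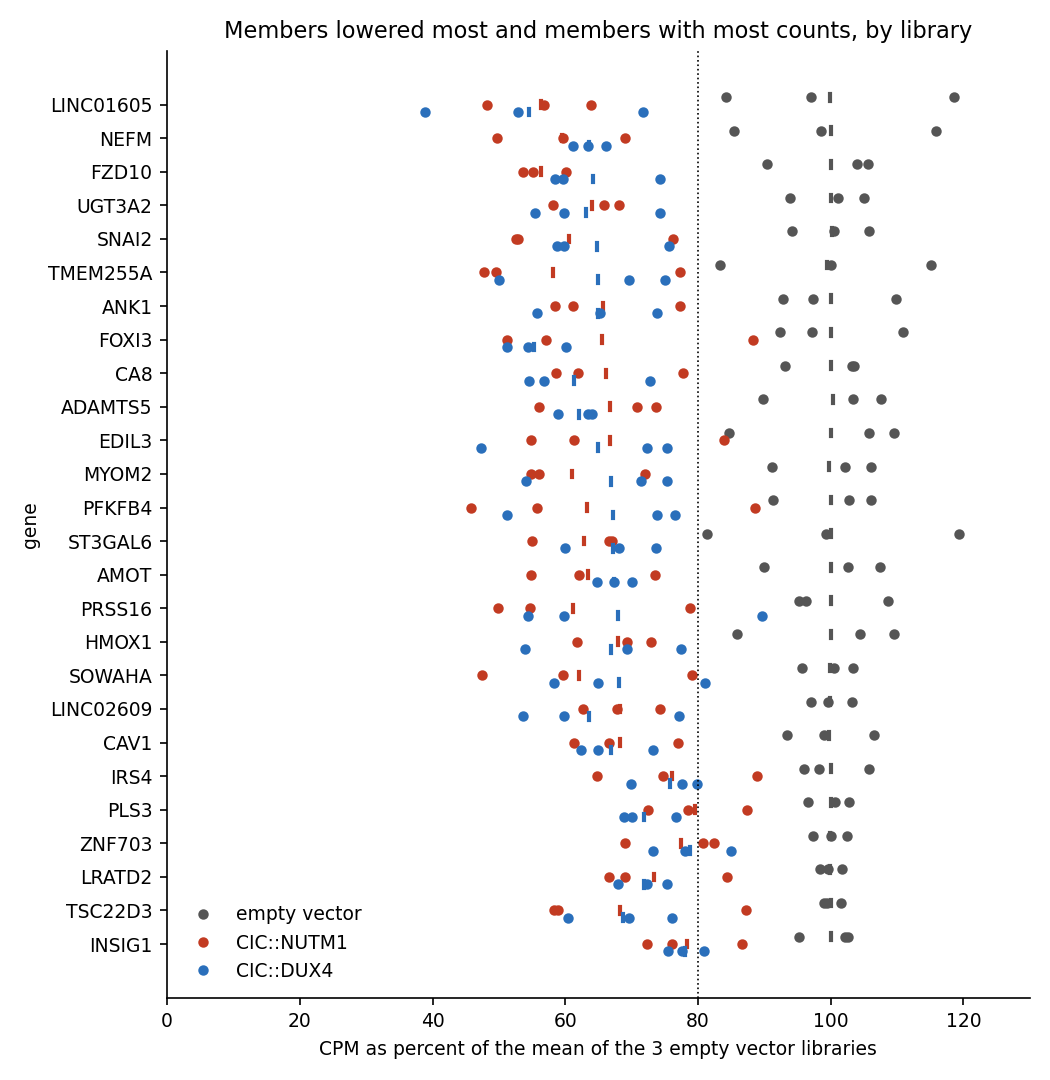
Each point is 1 library, as CPM in percent of the mean of the 3 empty vector libraries, for the 20 genes with the smallest value of the larger ratio and the 6 further genes with the most counts; grey is empty vector, red CIC::NUTM1, blue CIC::DUX4, short bars are group means and the dotted line is at 80%. By the rule that chose the genes, no fusion library reaches an empty vector library of the same gene. The fusions overlap each other in most rows.

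Promoters are printed for 3 leading members and for CMTM6, to show what lies ahead of genes that were lowered together. Of the 147 genes, 102 had an entry in RefSeq (GRCh38.p14), as a window of 250 bases before and 50 after RefSeq's start. UGT3A2 is at chr5:36066833-36067132, TMEM255A at chrX:120311412-120311711, FOXI3 at chr2:88452644-88452943 and CMTM6 at chr3:32502803-32503102, all on the minus strand. Each is written 5′ to 3′ with matches to the motifs searched in capitals.
UGT3A2: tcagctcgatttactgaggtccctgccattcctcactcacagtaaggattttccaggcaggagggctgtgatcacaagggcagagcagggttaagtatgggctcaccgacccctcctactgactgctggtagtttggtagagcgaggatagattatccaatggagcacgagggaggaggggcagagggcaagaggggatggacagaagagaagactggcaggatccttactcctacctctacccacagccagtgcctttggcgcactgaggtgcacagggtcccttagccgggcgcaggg
TMEM255A: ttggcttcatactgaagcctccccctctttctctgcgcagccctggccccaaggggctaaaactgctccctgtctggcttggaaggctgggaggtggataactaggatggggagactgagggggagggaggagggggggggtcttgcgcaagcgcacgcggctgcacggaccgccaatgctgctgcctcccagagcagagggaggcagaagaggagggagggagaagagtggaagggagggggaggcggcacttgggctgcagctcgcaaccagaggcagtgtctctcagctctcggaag
FOXI3: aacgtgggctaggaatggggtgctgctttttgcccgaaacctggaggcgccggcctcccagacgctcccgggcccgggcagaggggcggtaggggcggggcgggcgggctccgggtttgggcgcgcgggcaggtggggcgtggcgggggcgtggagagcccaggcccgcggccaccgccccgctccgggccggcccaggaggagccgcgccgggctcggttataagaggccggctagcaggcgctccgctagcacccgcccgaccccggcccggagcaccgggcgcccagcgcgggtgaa
CMTM6: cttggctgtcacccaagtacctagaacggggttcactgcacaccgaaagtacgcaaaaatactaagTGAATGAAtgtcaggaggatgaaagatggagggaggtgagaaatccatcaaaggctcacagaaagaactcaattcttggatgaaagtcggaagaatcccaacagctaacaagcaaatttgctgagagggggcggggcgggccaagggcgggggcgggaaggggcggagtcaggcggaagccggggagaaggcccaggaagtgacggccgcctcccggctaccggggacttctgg
The first 3 hold no match to any of 6 motifs searched on both strands: TGAATGAA and TGAATGGA, which are among the octamers CIC is known to bind, CCGGAAGT for ETS factors, TGANTCA for AP-1, TGACGTCA for cyclic AMP response elements and TATAAA. CMTM6, which stabilises PD-L1 at the cell surface, is shown because it was the only one of the 102 with either CIC octamer searched. The match is TGAATGAA, at base 67 of the window, and CMTM6 was chosen after the search. That is 0.98% of the 102 promoters, against 1.09% of 9203 promoters of genes at 5 CPM or more and 1.67% of all 27305. TGAATGGA was in 0 of the 102, against 0.576% and 1.05%. The ETS motif was in 1 promoter, that of SLC25A24 (0.98%, against 9.42% and 4.44%), the AP-1 motif in 6 (5.88%, against 3.66% and 7.76%), the cyclic AMP motif in 3 (2.94%, against 3.53% and 1.98%) and TATAAA in 6 (5.88%, against 4.78% and 12%). These are counts of letters in a short window and say nothing of binding.

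To read the lowering in libraries that did not choose the genes, the rule was applied without all 3 libraries of 1 replicate number, and the ratios were taken between the libraries of that number. The lowering was still there and was smaller, in gene sets that only partly overlap the set chosen with all libraries. Of the 183, 357 and 231 genes found without replicates 1, 2 and 3, 98, 129 and 107 were in that set. The medians and shares below are over all genes found, and the shared genes were not read apart. Without replicate 1 the rule found 183 genes, and in the left-out libraries their median ratios were 0.736 with CIC::NUTM1 and 0.808 with CIC::DUX4, against 0.711 and 0.744 in the libraries that chose them. Without replicate 2 it found 357 genes, with left-out medians of 0.878 and 0.868 against 0.695 and 0.747. Without replicate 3 it found 231, with 0.761 and 0.855 against 0.724 and 0.736. In the left-out libraries the median of all genes was 0.946 to 0.973 with CIC::NUTM1 and 0.984 to 0.988 with CIC::DUX4. Both left-out ratios were below 1 for 82.5%, 68.3% and 73.2% of the chosen genes for replicates 1, 2 and 3, against 42.5%, 41.7% and 38.8% of all genes. Both were at most 0.8 for 72 genes (39.3%, against 6.35% of all), 53 genes (14.8%, against 1.92%) and 65 genes (28.1%, against 3.71%). The 2 ratios of a number share 1 empty vector library, so they are not independent of each other.

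**Figure D3:**
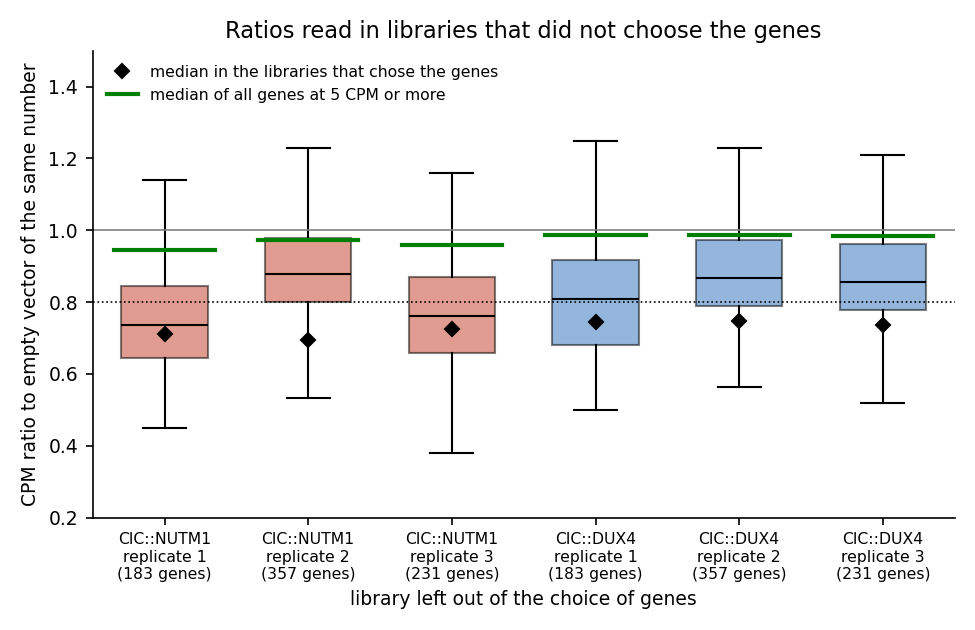
Boxes show the quartiles and median, and whiskers the range within 1.5 box lengths, of the CPM ratio of the left-out fusion library (x axis) to the empty vector library of the same number, for the genes chosen without those libraries. Diamonds are the medians in the libraries that chose the genes and green lines the medians of all genes, and every box median lies between its diamond and its green line.

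The comparison of CIC::NUTM1 with CIC::DUX4 was not used to choose the genes and was tested with edgeR's quasi-likelihood test over all 17576 genes tested, Benjamini-Hochberg adjusted. All 147 genes passed its filter on low counts. Since both fusions had to be at most 0.8 of empty vector, the rule limits how far they can differ. Of the 147 genes, 1 had a higher level with CIC::NUTM1, PLS3, against 4.97% of all genes tested and 6.45% of those at 5 CPM or more, and 0 were called lower, against 1.64% and 1.73%. At an unadjusted p under 0.05, 2 were higher (PLS3 and ZCCHC12) and 2 lower (EDARADD and PLPP6). No share of all genes at that unadjusted threshold is given here, so these counts are not read as a result. DESeq2, adjusted, called 0 in either direction. The differences ran from -0.55 to 0.30 on the log2 scale with a median of 0.01 and a median SE of 0.14, and 73 were negative and 74 positive. The ratio of mean CPM was lower with CIC::NUTM1 for 93 genes and lower with CIC::DUX4 for 54 on library totals, as in the rule, and for 73 and 74 with TMM scaling. The same edgeR fit on library totals gave 90 negative and 57 positive differences, and with TMM but without CIC::NUTM1 replicate 2 it gave 99 and 48. The split between the fusions therefore depends on the scaling and on that library.

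PLS3 (X chromosome, 115561174 to 115650861, plus strand) was at 1188, 1238 and 1263 CPM with empty vector, 892, 1074 and 966 with CIC::NUTM1 and 847, 943 and 861 with CIC::DUX4. Its level with CIC::NUTM1 exceeded that with CIC::DUX4 by 0.19 ± 0.06 (SE) on the log2 scale, with an adjusted p of 0.0499 by edgeR's quasi-likelihood test, and the libraries of the 2 fusions overlapped. The adjusted p was 0.243 without CIC::NUTM1 replicate 2, 0.176 without CIC::NUTM1 replicate 3, 0.21 without CIC::DUX4 replicate 1 and 0.151 without CIC::DUX4 replicate 3, and over all alternatives it ran from 0.00693 to 0.243. The difference was 0.12 to 0.25 on the log2 scale in these alternatives. EDARADD differed most in size, at -0.55 ± 0.21 (SE; 95% interval -0.96 to -0.15), with an adjusted p of 0.127 by the same edgeR test. PLPP6, a lipid phosphatase, was at 14, 15.1 and 13.5 CPM with CIC::NUTM1 and 16.0, 18.9 and 18.0 with CIC::DUX4, a difference of -0.26 ± 0.12 with an adjusted p of 0.243 by edgeR. All CIC::NUTM1 libraries were below all CIC::DUX4 libraries for 6 genes, EDARADD, SLCO4C1, PLPP6, LYPD1, CKMT1A and ROR2, against 15.3% of the 11433 genes, and above them for 2, ZCCHC12 and EPAS1, against 10.7%. FZD10 and NEFM, the most lowered coding genes by the larger ratio, differed by -0.14 (95% interval -0.46 to 0.18) and -0.05 (-0.31 to 0.20).

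For completeness, edgeR called 94 of the 147 lower with CIC::NUTM1 than with empty vector (3.83% of all genes tested), 72 lower with CIC::DUX4 (1.27%), 62 with both (0.677%) and 43 with neither. The rule used these comparisons, so these counts carry no evidence of their own.

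The 6 fusion libraries did not lower the genes alike. As a ratio to mean empty vector, the median over the 147 genes was 0.667, 0.79 and 0.68 in CIC::NUTM1 replicates 1, 2 and 3, and 0.689, 0.769 and 0.756 in CIC::DUX4 replicates 1, 2 and 3. The empty vector libraries were at 0.987 to 1.01. CIC::NUTM1 replicate 2 was the highest of its group for 104 genes (70.7%, against 38.5% of all genes), and CIC::DUX4 replicate 1 was the lowest of its group for 93 (63.3%, against 32.7%). ETV4, an ETS factor and known CIC target, was at 248, 154 and 206 CPM in the CIC::NUTM1 libraries and at 235, 167 and 182 in the CIC::DUX4 libraries. ETV5 was at 303, 196 and 297 CPM, and at 300.4, 217 and 231. In each fusion the library with the most ETV4, replicate 1, had the lowest median of the 147 genes. The library with the least, replicate 2, had the highest. The order thus follows the same replicate numbers in both fusions. Whether libraries of the same number share a transfection day is not given. ETV4 and differences between transfections therefore cannot be told apart here. The part of ETV4 in these levels was not tested. The spread between libraries was wider for these genes, with a median coefficient of variation of 13.2% with CIC::NUTM1 and 10.3% with CIC::DUX4, against 8.1% and 7.01% over all genes. With empty vector it was 7.56% for the 147 and 6.26% for all genes, so the 147 varied more there too, though by less. The levels of the 147 are lower than those of all genes, and the part of level in this spread was not tested.

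**Figure D4:**
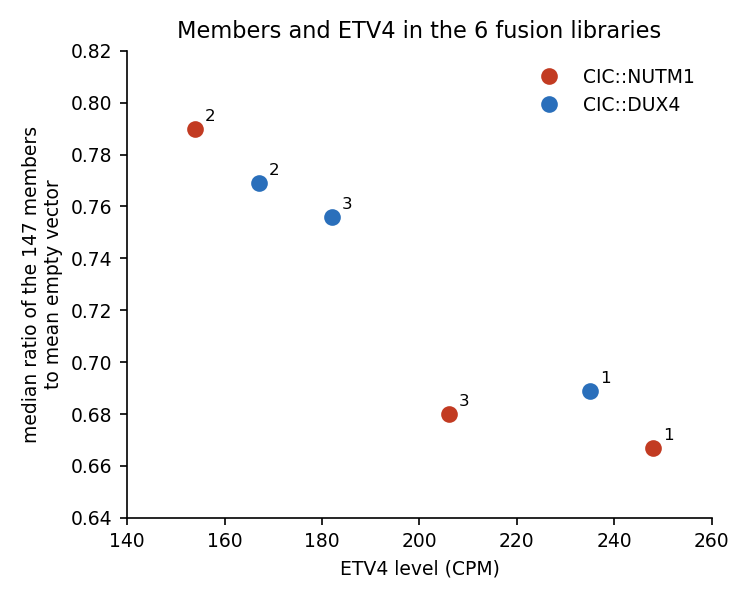
Each point is 1 fusion library, numbered by replicate, with its ETV4 level in CPM on the x axis and, on the y axis, the median over the 147 genes of its CPM as a ratio to mean empty vector. CIC::NUTM1 replicate 2, with 154 CPM of ETV4, is highest at 0.79, and CIC::NUTM1 replicate 1, with 248 CPM, is lowest at 0.667.

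The other genes of the pathways around these members were tested by edgeR against empty vector over all genes, adjusted p under 0.05. Of 22 further BMP and TGF-beta response genes beside ID2 and SMAD9, 12 rose with CIC::NUTM1 and 1, TGFB1, fell, and with CIC::DUX4 6 rose and 0 fell (5 were lower at an unadjusted p under 0.05, and 0 by DESeq2). BMP7, a BMP ligand, went from 78.1 ± 2.84 CPM (SD, n = 3) to 215 ± 42.1 and 114 ± 2.04, by 1.51 and 0.55 on the log2 scale with adjusted p of 1.75e-07 and 0.00537 by edgeR. Of 22 further kidney development genes beside ITGA8 and CRABP2, 9 rose and 1, SALL2, fell with CIC::NUTM1, and 4 rose and 0 fell with CIC::DUX4 (1 lower at an unadjusted p under 0.05, and 0 by DESeq2). GATA3 rose by 1.10 and 0.49 and EYA1 by 1.21 and 1.73 on the log2 scale. These shares stand beside 11.5% of all genes called higher and 3.83% called lower with CIC::NUTM1, and 6.96% and 1.27% with CIC::DUX4. The shares of all genes include the members, which the list counts leave out. They are for adjusted p and are no background for the counts at an unadjusted p.

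Of 25 further glycolysis and hypoxia genes beside NDRG1 and SLC2A1, 3 rose with both fusions, P4HA1, PFKP and PKM. HK2 fell with CIC::NUTM1, and PDK1 and PFKM fell with CIC::DUX4. At an unadjusted p under 0.05, 4 of the 25 were lower with CIC::NUTM1 and 9 with CIC::DUX4. No share of all genes at that unadjusted threshold is given here, so these counts have no matched background. DESeq2, adjusted, called 2 lower with each fusion, and 3 and 2 higher with CIC::NUTM1 and CIC::DUX4. PFKP, the platelet type of phosphofructokinase, rose by 0.72 and 0.51 on the log2 scale. Of 23 further cholesterol synthesis genes beside INSIG1, 4 rose with CIC::NUTM1 (ACAT2, FDFT1, IDI1 and SQLE), 1 with CIC::DUX4 (IDI1), and 0 were called lower. At an unadjusted p under 0.05, 0 were lower with CIC::NUTM1 and 2 with CIC::DUX4, and DESeq2, adjusted, called 0 and 2 lower. Of 18 further neuronal genes beside NEFM, 6 rose and 3 (INA, NEFL and SYP) fell with CIC::NUTM1, and DCX and MAP2 rose and NEFL fell with CIC::DUX4. NEFL, the light chain that assembles with NEFM, went from 199 ± 10.4 CPM (SD, n = 3) to 163 ± 8.93 and 144 ± 6.99, by -0.25 ± 0.07 (SE) and -0.47 ± 0.07 on the log2 scale, with adjusted p of 0.0104 and 1.51e-05 by edgeR. Of 14 further ectodysplasin pathway genes beside EDARADD, NFKB1 rose and IKBKB fell with CIC::NUTM1 and 0 were called with CIC::DUX4 (1 higher and 0 lower at an unadjusted p under 0.05, and 0 by DESeq2). Of 10 further NK homeobox genes beside NKX1-2, NKX6-1 rose with CIC::NUTM1 and NKX2-3 fell with CIC::DUX4. Genes named here other than those called with both fusions were named after their values were seen. Over all 21 lists, 1656 genes that are no members were tested, and 167 rose and 73 fell with CIC::NUTM1 and 118 rose and 11 fell with CIC::DUX4. These are 10.1% and 4.41% with CIC::NUTM1, against 11.5% and 3.83% of all genes tested. With CIC::DUX4 they are 7.13% and 0.664%, against 6.96% and 1.27%. The shares called higher were thus near the background. The shares called lower are not matched, because all genes include the 147 and the lists leave them out. Of the 673 and 224 genes called lower with CIC::NUTM1 and CIC::DUX4, 94 and 72 are among the 147. On library totals alone the CIC::NUTM1 counts were 151 higher and 126 lower.

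By position, 16 of the 147 genes are on chromosome 8 (10.9%, against 3.46% of the 11433 genes) and 14 on the X chromosome (9.52%, against 3.67%). Among the X-linked genes are TMEM255A, AMOT, TSC22D3, MID2, KLF8, ARMCX5, IRS4, TSPAN7, SMIM10, SYTL4, ZCCHC12, RAB9A and PLS3, and NEFM, SNAI2, ANK1, CA8, MYOM2, NDRG1, LRATD2 and ZNF703 are among those on chromosome 8. The other X-linked genes had median ratios of 0.918 with CIC::NUTM1 and 0.952 with CIC::DUX4, the lowest of any chromosome with each fusion, and the other genes of chromosome 8 had 0.982 and 0.983. Next to each other among expressed genes lie SLC29A3 and CDH23, LINC01605 and ZNF703, NDRG1 and ST3GAL1, and TSC22D3 and MID2. The chromosome counts were noticed in these data and were not tested.

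**Figure D5:**
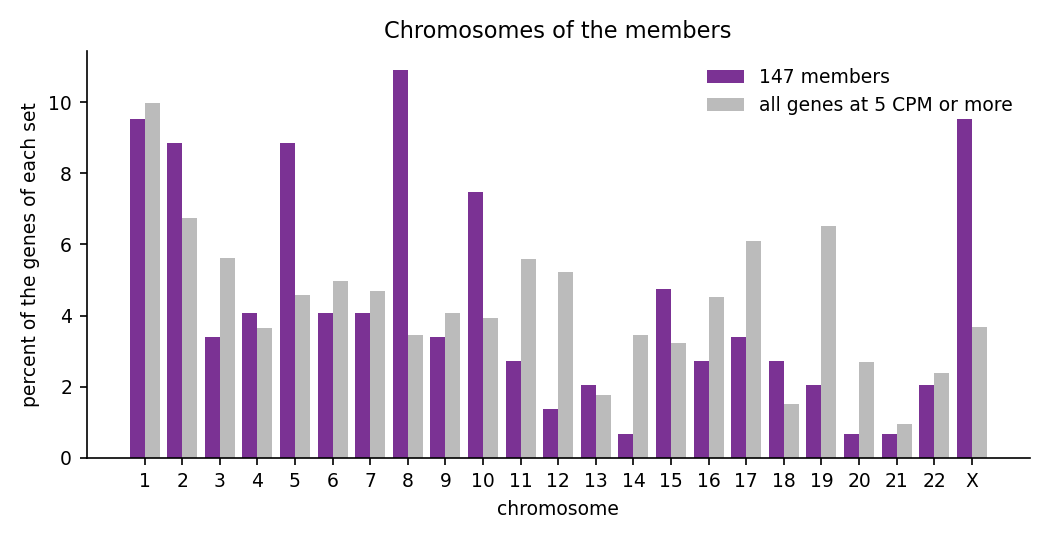
Bars give, for each chromosome (x axis), the percent of the 147 genes (purple) and of all genes at 5 CPM or more with empty vector (grey) that lie on it. Chromosomes 8 and X hold 10.9% and 9.52% of the 147 genes against 3.46% and 3.67% of all.

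Other properties that the rule did not use are given beside those of the 11365 genes, of the 11433, that are in GENCODE 29. Protein-coding genes were 137 of the 147 (93.2%, against 96%), the longest transcript had a median of 3670 bases against 3815, its GC content a median of 51.6% against 48.1%, and promoter GC, over the 102 and 9203 genes with an entry, a median of 67.3% against 66%. In GENCODE 29, 71 of the 147 overlap a gene on the other strand and 44 a gene on the same strand, and whether the counting used strand is not given in the sources used here. Counts are uncertain for CKMT1A, which has a near-identical copy, for the pseudogene HMGN2P3, and for PCDHGA11, which shares exons with its cluster.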

How the data were processed

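PolyA RNA of 9 libraries of 293T cells was sequenced after a directional library preparation, per the labels' protocols. Raw counts for each Ensembl gene were deposited by the authors, with a further table of log2 CPM that served here only for alternatives. STAR 2.7.10b, R 4.2.2, edgeR 3.40.2 and GRCh38 are named in the submitters' processing notes, with no role or order. The annotation, the counting program and the use of strand are not given in the sources used here. Symbols matched 62622 of 62700 gene IDs.

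CPM was computed from column totals (16970771 to 33655445 counts, which set the precision), and the members were chosen by the rule stated in the report. The members and the gene lists were chosen with earlier results of these data known, and roles were assigned after the members were seen. The test on counts was that of edgeR 4.0.16 (R 4.3.3), with filterByExpr (17576 genes), TMM scaling, a robust quasi-likelihood fit of all 9 libraries with 1 mean per group, Benjamini-Hochberg adjusted p under 0.05. The common dispersion was 0.01018. The SE of a log2 change is its size divided by the square root of F. On simulated data for CIC::NUTM1 against CIC::DUX4 (17323 genes, 200 changed) 92% were recovered and 5.64% of calls were false. The 92% is over all 200 genes, and recovery at the sizes of difference seen for the members was not tested. Named members are the 20 with the smallest larger ratio, the 8 with most counts, those called between the fusions, those in a gene list and those nearest the limit. List genes are named where called with both fusions, up to 3 in each list. Gene positions, types and overlaps are from GENCODE 29, and promoters from RefSeq GRCh38.p14. Alternatives were other scalings, filters, tests (DESeq2 1.42.0, limma-trend with limma 3.58.1), thresholds, a replicate block and libraries left out. Figures used matplotlib 3.10.9. A few genes are not reported here.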

Additional observations from a re-analysis of the deposited data

Results flagged for a closer look

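PLS3, an actin-bundling plastin, differed between the fusions, with a log2 difference of 0.19 (CIC::NUTM1 minus CIC::DUX4) and an adjusted p of 0.0499 by edgeR's quasi-likelihood test. It was the only one of the 147 genes called in that test. The call was lost under 9 of the 15 alternatives run for it, and the difference kept its sign in all 15.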

How the results depend on the processing

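The rule found 120 genes with TMM scaling (118 of the 147 among them), 132 with DESeq2 size factors, 163 with upper quartile factors, 116 on the authors' log2 CPM and 111 at a mean of at least 10 CPM. At a ratio of at most 0.7 it found 25 genes, with median ratios of 0.635 with CIC::NUTM1 and 0.651 with CIC::DUX4. With 1 library left out it found 126 to 228 genes. The medians of the 147 genes were then 0.679 to 0.729 with CIC::NUTM1 and 0.735 to 0.768 with CIC::DUX4. With all libraries of a replicate number left out it found 183 to 357 genes, 98 to 129 of the 147 among them. The medians of those genes, read in the libraries that did not choose them, were 0.736 to 0.878 and 0.808 to 0.868. The call of 1 member higher in CIC::NUTM1 than in CIC::DUX4 went to 0 with DESeq2 size factors, library totals alone, upper quartile factors, DESeq2 and a fit of only the 6 libraries compared, and was 0 to 1 with a library left out. The count of members called lower was 0 in every alternative. With library totals alone 126 list genes were called lower with CIC::NUTM1, in place of 73. Of 315 values for 21 named members in 15 settings, 306 kept their side of the threshold and the other 9 are PLS3. Apart from PLS3, these members had adjusted p of 0.489 to 0.981 in the main edgeR test. They had little room to cross the threshold, so this count is a weak check. EDARADD and PLPP6 are not among the 21. With the replicate number as a block, 1 member was called higher and 0 lower, and the list genes gave 165 higher and 83 lower with CIC::NUTM1 and 121 and 12 with CIC::DUX4. Deviations of libraries from their group means had correlations of -0.172 to 0.244 between groups for the same number. For different numbers they were -0.288 to 0.217. Outside the replicate block, the tests therefore did not take the numbers as pairs. The left-out ratios did use the empty vector library of the same number. The median SE of a difference between the fusions was 0.14 on the log2 scale.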
